A study of Mus musculus with 4 samples.

Results

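The cells described here are the T cells and natural killer (NK) cells found among reporter-positive mouse kidney cells before and after ischemia and reperfusion (IRI). A cell barcode was counted among them if it held at least 500 unique molecular identifiers (UMIs), at least 300 genes and at most 50% mitochondrial UMIs. It also needed at least 5 UMIs of Cd3d, Cd3e, Cd3g and Nkg7 together per 10000 UMIs, with at least 3 such UMIs in all. C1qa and Lyz2 together had to stay under 50 per 10000, and S100a8 and S100a9 together under 100, which sets a limit on macrophage and neutrophil RNA. Of 24410 barcodes that passed the 3 quality limits, 168 met the rule. The cells were thus chosen by the levels of these 8 genes, which are given as a description.

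The series sampled kidneys of BAC-CluGFP mice, in which a bacterial artificial chromosome places green fluorescent protein (GFP) under the control of the clusterin gene, Clu. Each group had 1 library, made from untreated kidneys or from kidneys collected 2, 7 or 30 days after 35 min of IRI. All 4 groups carried the reporter, and in each the GFP-positive cells were sorted after enzymatic digestion and read by droplet sequencing of transcript 3′ ends. How many animals each library pooled is not stated in the labels, so no spread between animals could be measured and no test was run. A reporter of this kind can be active where the native gene is not, and the matrices held 0 rows for GFP, so the reporter's transcript was not analysed here. Intervals below are exact 95% intervals (Clopper-Pearson for shares, Poisson for counts and their ratios) and cover counting error only. They treat UMIs as independent although UMIs of 1 cell are not, so the number of cells with a UMI is given beside levels that rest on few cells.

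T cells recognise peptide antigens through a receptor that signals by the CD3 chains, and are divided into CD8 cells, which can kill target cells, and CD4 cells, which act largely through cytokines and surface ligands. NK cells lack that receptor and read activating and inhibitory receptors of the killer lectin-like families, whose genes lie side by side in the NK gene complex. Both kinds of killer store granzymes and perforin in granules and release interferon gamma and chemokines. In the injured kidney, T and NK cells are known to arrive early, and T cells can persist as resident cells.

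The rule genes are in known places of the mouse build GRCm38. Cd3g (chr9:44969572-44980431), Cd3d (chr9:44981786-44987339) and Cd3e (chr9:44998740-45009627) are neighbours and encode the signalling chains of the T cell receptor. Nkg7 (chr7:43437073-43438249) encodes a membrane protein of cytotoxic granules. The killer genes that recur below have upstream sequences that can be shown beside their levels. The 250 bases before the annotated start of 5 of them follow, 5′ to 3′ on the gene's strand, from RefSeq on GRCm38.p6. They are Gzma (chr13:113100982-113101231, minus strand) and Gzmb (chr14:56262335-56262584, minus strand), which encode granzymes, and Xcl1 (chr1:164935523-164935772, minus strand), a chemokine of killer cells. The others are Klrc1 (chr6:129678974-129679223, minus strand), an inhibitory NK receptor chain, and Ifng (chr10:118440796-118441045, plus strand), interferon gamma. Capitals mark the letters TGTGGT, the core bound by RUNX factors, or the same word read on the other strand, ACCACA. The 5 genes were chosen with their levels known.
Gzma: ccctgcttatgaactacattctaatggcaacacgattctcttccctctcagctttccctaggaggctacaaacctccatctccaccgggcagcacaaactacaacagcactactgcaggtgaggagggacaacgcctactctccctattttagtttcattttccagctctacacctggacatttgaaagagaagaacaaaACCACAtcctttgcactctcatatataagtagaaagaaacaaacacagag
Gzmb: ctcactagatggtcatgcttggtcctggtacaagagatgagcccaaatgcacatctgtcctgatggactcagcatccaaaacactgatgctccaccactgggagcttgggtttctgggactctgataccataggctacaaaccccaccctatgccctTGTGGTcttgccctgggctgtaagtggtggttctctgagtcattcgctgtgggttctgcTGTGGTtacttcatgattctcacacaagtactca
Xcl1: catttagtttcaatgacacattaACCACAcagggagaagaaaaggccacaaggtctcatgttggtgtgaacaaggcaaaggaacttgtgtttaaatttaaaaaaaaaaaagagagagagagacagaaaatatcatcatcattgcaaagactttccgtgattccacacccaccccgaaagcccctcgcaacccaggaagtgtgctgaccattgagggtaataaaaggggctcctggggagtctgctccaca
Klrc1: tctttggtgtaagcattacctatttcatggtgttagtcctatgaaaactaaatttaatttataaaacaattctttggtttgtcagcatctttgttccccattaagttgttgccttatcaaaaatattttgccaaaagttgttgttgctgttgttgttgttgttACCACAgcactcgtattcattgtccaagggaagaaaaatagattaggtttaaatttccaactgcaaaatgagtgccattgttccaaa
Ifng: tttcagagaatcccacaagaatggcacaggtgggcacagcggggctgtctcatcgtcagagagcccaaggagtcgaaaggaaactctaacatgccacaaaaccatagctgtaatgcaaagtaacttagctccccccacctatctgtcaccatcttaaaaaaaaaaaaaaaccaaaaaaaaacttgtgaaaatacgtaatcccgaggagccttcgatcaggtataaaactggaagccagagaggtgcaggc
The word occurred 1 time in the Gzma window, beginning 50 bases before the start, and 2 times in Gzmb, beginning 93 and 34 bases before it. The Gzmb distances are counted from the RefSeq start, which lies upstream of the GENCODE start of the gene. It occurred 1 time in Xcl1, 227 bases before the start, 1 time in Klrc1, 87 bases before it, and 0 times in Ifng. In the RefSeq table of promoters, the window of 250 bases before a start held it for 4614 of 32851 windows (14.0%) and 4303 of 27025 genes (15.9%). Among the listed genes with an entry, it was in a window of 9 of 16 NK receptor genes, 7 of 12 cytotoxic genes and 2 of 3 chemokine genes, and in 0 of 4 genes of the T cell receptor complex. Genes with several windows had more chances to hold it, and the lists are short. The lists also hold related genes, such as those of the Klra and Klrc families and the granzymes, whose matches may not be separate. The word AGGTGTGA, which T-box factors such as Eomes and Tbx21 bind, was in 368 of 32851 windows (1.12%) and in 0 genes of these 4 lists. Both words were sought on both strands of the 250 bases before the start. A match is a description of letters and not a binding site. Of the factors themselves, Runx3, a RUNX factor of CD8 and NK cells, was read at 202 counts per 1000000 UMIs (CPM, over all T and NK cells of a library) on day 2 and 131 on day 30, from 187 and 43 UMIs.

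T and NK cells were 11 of 6546 kept barcodes in the untreated library (0.168%, interval 0.0839 to 0.300%). On day 2 they were 121 of 8988 (1.35%, 1.12 to 1.61%). On day 7 they were 2 of 1930 (0.104%, 0.0126 to 0.374%), and on day 30 they were 34 of 6946 (0.489%, 0.339 to 0.683%). The day 2 share was the highest and its interval did not overlap the other 3. The untreated and day 7 intervals overlapped. The lowest UMI total of a barcode differed between libraries, at 2335, 3881, 18362 and 5976 in time order. T and NK cells had median totals of 4111, 5987, 22151 and 8817 UMIs, against 5157, 9007.5, 23394 and 9219 over all kept barcodes. Above the day 7 limit there were 0, 6, 2 and 1 of them in time order. Above the day 30 limit the day 2 library held 62 in 6434 barcodes (0.964%, 0.740 to 1.23%), still above the day 30 share. The share was also taken over barcodes that met either this rule or the macrophage or neutrophil limits. T and NK cells were then 21.2% of 52 untreated (11.1 to 34.7%) and 2.36% of 5128 on day 2 (1.96 to 2.81%). They were 0.485% of 412 on day 7 (0.0588 to 1.74%) and 1.74% of 1950 on day 30 (1.21 to 2.43%). By this measure the untreated share was the highest, and the day 2 and day 30 intervals overlapped.

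**Figure D1:**
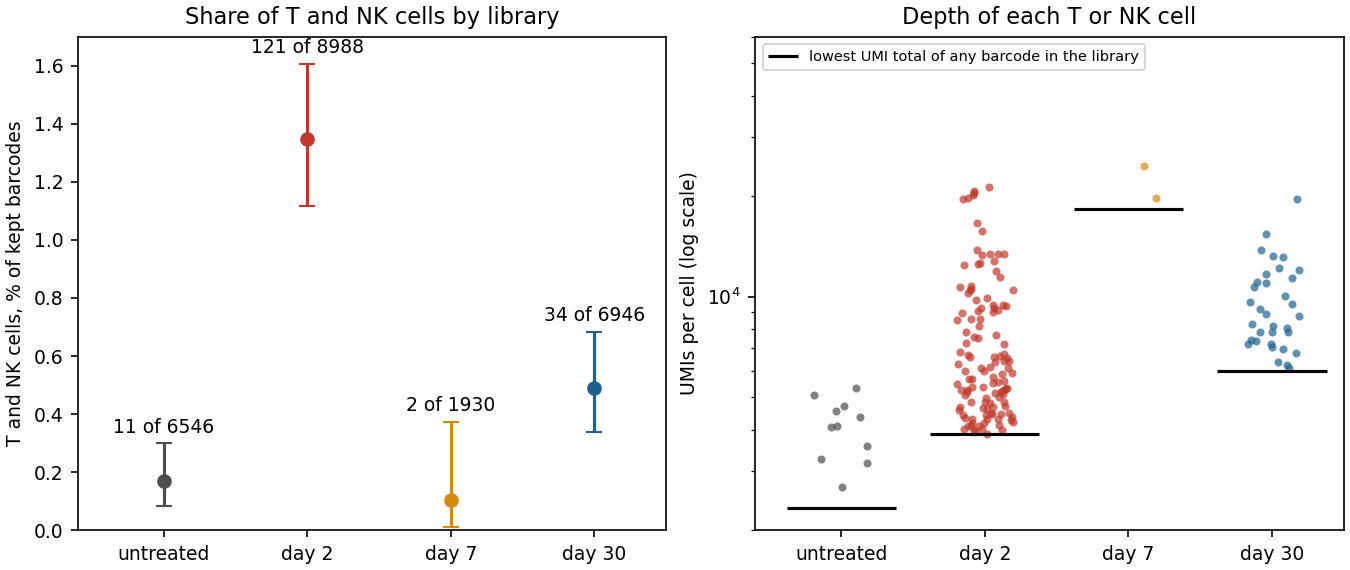
Left, the share of kept barcodes that are T and NK cells in each library, in percent, with exact 95% intervals; right, the UMI total of each T and NK cell on a log scale, with a black line at the lowest total of any barcode in that library. The day 2 share of 1.35% is the highest, and the lines show that the library minimum runs from 2335 to 18362 UMIs.

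The rule's signal was strong in the first 2 libraries and weak in the last 2. Its median was 21.5 per 10000 UMIs untreated, 26.2 on day 2, 7.57 on day 7 and 11.2 on day 30. Near the limit of 5, the cells from 5 to under 6 numbered 1, 3, 0 and 2, and the barcodes left outside from 4 to under 5 numbered 1, 3, 0 and 6. The identity of the cells was checked with 15 lymphocyte markers that the rule did not use. At least 3 of these were found in 11 of 11, 118 of 121, 2 of 2 and 33 of 34 cells, with a median of 8, 9, 8 and 8 markers. The same was found in 4 of 1303 epithelial barcodes (Epcam, Cdh16 and Cdh1 at 2 or more per 10000, no Ptprc) and 15 of 1841 myeloid barcodes (C1qa and Lyz2 at 50 or more) on day 2. On day 30 it was found in 2 of 2134 and 24 of 1912. Ptprc, the pan-leukocyte phosphatase CD45, had a UMI in 11, 121, 2 and 32 cells. Over all pairs of libraries, the barcodes shared 74 sequences, counted before the quality limits. Of these, 0 belonged to a T or NK cell in both libraries of a pair.

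Markers of other cells were present and differed between libraries. At least 2 UMIs of Epcam, Cdh16 and Cdh1 were found in 2, 13, 1 and 13 T and NK cells. The 8 proximal tubule markers summed to 22068 CPM in the untreated cells, 58.5% of the level in all other untreated barcodes, with 150 to 331 UMIs per 10000 in every cell, against 73.6 CPM on day 2, 203 on day 7 and 604 on day 30. The share of mitochondrial UMIs had a median of 9.78% in the untreated cells and 4.13, 4.51 and 3.74% in the others. Genes of antigen presentation by MHC class II (H2-Aa, H2-Ab1, H2-Eb1 and Cd74) reached 50 per 10000 UMIs in 0, 5, 0 and 11 cells. Of these, 3 of 5 on day 2 and 9 of 11 on day 30 had a rule signal under 10. Scrublet, a doublet caller, marked 0, 7, 0 and 1 of the T and NK cells. Cells with class II genes at 50 or more, or with 2 epithelial UMIs, are called mixed below. Leaving them out kept 104 cells on day 2 and 14 on day 30.

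By the rule's own genes, Cd3g stood at 690.3 CPM untreated, 772 on day 2, 429 on day 7 and 625 on day 30. Cd3d stood at 489.9, 613, 271 and 375 CPM, and Cd3e at 223, 305, 67.7 and 189. Nkg7 stood at 668, 938, 0 and 412 CPM. On day 30, 15 of 34 cells had a UMI of Nkg7, against 96 of 121 on day 2. All 34 day 30 cells held a UMI of a CD3 gene, as did 108 of 121 on day 2, 10 of 11 untreated and both on day 7.

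NK-gated cells, with no CD3 UMI and at least 2 UMIs of Ncr1, Klrb1c, Klrd1, Klre1 and Klra8 together, numbered 1 of 11 untreated and 13 of 121 on day 2 (10.7%, 5.85 to 17.7%). There were 0 of 2 on day 7 and 0 of 34 on day 30, the latter with an upper bound of 10.3%. This bound lies inside the day 2 interval. Of cells that bore CD3, those with a UMI of Cd8a or Cd8b1 and none of Cd4 (Cd8-gated) were 5 of 10 untreated, 70 of 108 on day 2 (64.8%, 55.0 to 73.8%), 0 of 2 on day 7 and 10 of 34 on day 30 (29.4%, 15.1 to 47.5%). The 2 larger libraries did not overlap in this share. With day 2 limited to cells above the day 30 minimum, 30 of 56 were Cd8-gated (53.6%, 39.7 to 67.0%), and the intervals then overlapped. Cells with Cd4 and neither Cd8 gene (Cd4-gated) were 0 of 10, 12 of 108 (11.1%), 0 of 2 and 8 of 34 (23.5%, 10.7 to 41.2%). Both coreceptors were found in 5 cells, all on day 2, and neither in 5, 21, 2 and 16. Absence of a UMI is weak evidence for Cd4, which was read at 34.6 CPM on day 2 and 33.5 on day 30, from 32 and 11 UMIs. The constant-region genes of the T cell receptor were not analysed here, so alpha-beta and gamma-delta T cells were not separated.

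The coreceptor genes set the gate, and their levels over all T and NK cells follow. Cd8b1, the beta chain of CD8, stood at 579 CPM untreated (26 UMIs in 5 cells), 473 on day 2 (437 UMIs in 69 cells), 0 on day 7 and 177 on day 30 (58 UMIs in 10 cells). Cd8a, its partner, stood at 178, 209, 0 and 94.5 CPM. Both were lower on day 30 than on day 2, Cd8b1 by a factor of 2.67 (2.03 to 3.58) and Cd8a by 2.21 (1.51 to 3.34). Cd8a lost the call without mixed cells (day 30 at 0.683 of day 2) and above the day 30 minimum (0.602).

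Day 2 and day 30 were compared across genes, since the other libraries had 11 and 2 cells. The design asked for 50 cells in each library. The minimum of 30 that admits day 30 was chosen after the numbers were seen. A gene was measured with at least 20 CPM in either library and 20 UMIs in both together, and called higher or lower if the CPM differed at least 2-fold and the interval of the ratio left out 1. Of 6547 measured genes, 852 were higher on day 30 (13.0%) and 250 lower (3.82%), and 1102 (16.8%) were called in either direction. The median log2 ratio of CPM + 10 over all measured genes was 0.17. With CPM rescaled to bring that median to 0, 615 were higher and 349 lower. Of the 852, 551 were still called after the cell with most UMIs of the gene was left out in each library, and in 56 the level was at least 2-fold that of the other day 30 barcodes. Of the 250, 232 were still called and 107 were at least 2-fold above the other day 2 barcodes.

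**Figure D2:**
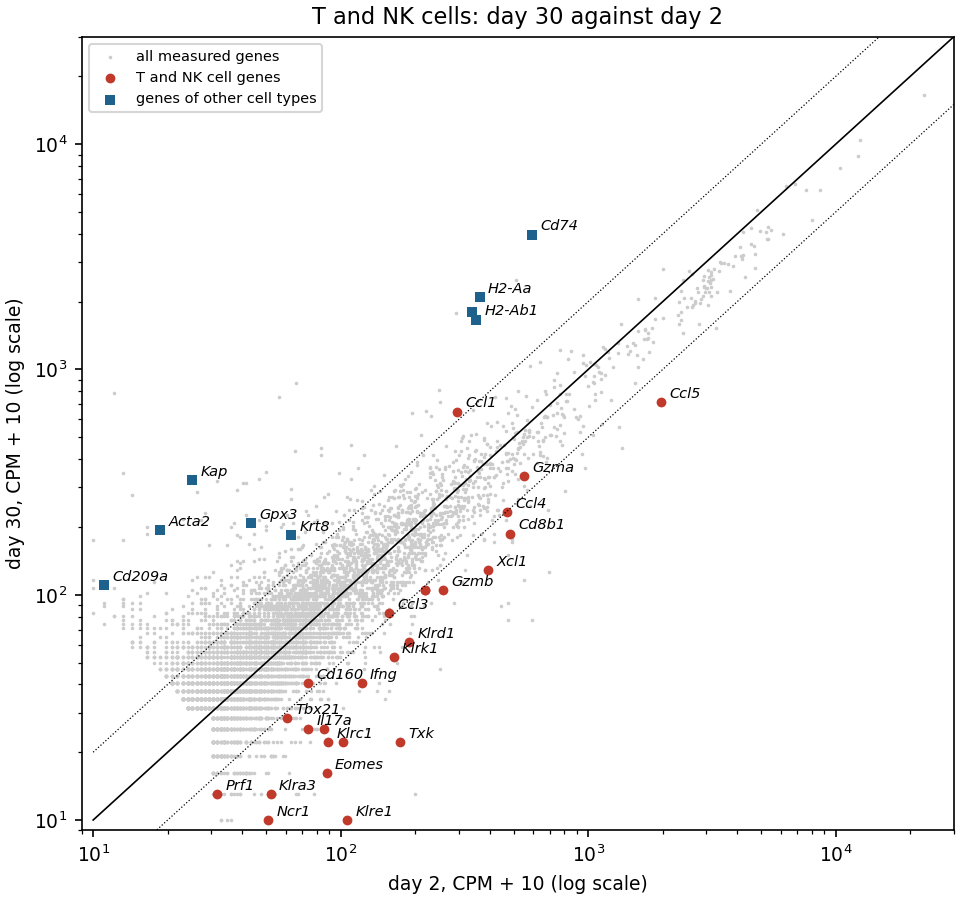
Each point is a measured gene, with its level in T and NK cells on day 2 (x) and day 30 (y), both as CPM + 10 on log axes; red points are some of the listed T and NK cell genes, blue squares are genes of other cell types, the solid line is equality and the dotted lines 2-fold. The red genes were picked by hand and most had been called lower, so their place under the diagonal is a description and no result. Txk, Eomes, Klrc1 and Klre1 were measured through day 2 alone. Listed genes called higher, among them Zeb2, Csf1, Ccr7, Itga1, Tnfrsf4 and Nt5e, are not marked in red. Class II genes such as Cd74, at 582 and 3961 CPM, lie above the diagonal.

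Among 20 genes of NK receptors, 12 were measured, 8 were lower on day 30 and 0 higher, with a median log2 ratio of -1.62 (-1.51 with the 2 genes at 0 set to a floor of 3 UMIs). Ncr1, Klrc1, Klrc2, Klre1 and Klra3 were under 20 CPM on day 30 and so were measured through day 2 alone, which makes their direction no support of its own. Klre1, a receptor chain of the NK gene complex (chr6:129577905-129585827), had 3 UMIs in 1 untreated cell, 89 UMIs in 31 cells on day 2 (96.3 CPM), 0 on day 7 and 0 on day 30. With day 30 set to a floor of 3 UMIs, its level was 10.5-fold lower there. The exact interval of the ratio of day 2 to day 30 began at 8.38. Ncr1, the activating receptor NKp46, had 38 UMIs in 14 cells on day 2 and 0 on day 30, 4.49-fold lower with the same floor. Of its 38 UMIs, 33 were in NK-gated cells, where it was part of the gate.

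The pair Klrc1 and Klrc2 encodes NKG2 chains that pair with the product of Klrd1, CD94, to read nonclassical MHC class I. Klrc1 stood at 89.1 CPM untreated (4 UMIs in 2 cells), 79.0 on day 2 (73 UMIs in 39 cells), 0 on day 7 and 12.2 on day 30 (4 UMIs in 3 cells). Klrc2 stood at 134, 91.9, 0 and 12.2 CPM. Klrd1 stood at 89.1, 178, 0 and 51.8 CPM, from 165 UMIs in 61 cells on day 2 and 17 UMIs in 6 cells on day 30. The day 2 level was 6.47 times that on day 30 for Klrc1 (2.42 to 24.4), 7.54 times for Klrc2 (2.84 to 28.3) and 3.44 times for Klrd1 (2.09 to 6.05). The 2 Klrc genes are near-identical copies that counting can mix. Klrk1, the activating receptor NKG2D, was lower by a factor of 3.60 (2.08 to 6.75), from 154 to 42.7 CPM. Cd160, a receptor on killer cells, stood at 63.8 and 30.5 CPM, and Klra3, of the Ly49 family, at 42.2 and 3.05.

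These genes were lower on day 30 among CD3-bearing cells too. With cells that lacked CD3 left out of both libraries, 10 NK receptor genes were measured and 6 were lower: Klrk1, Klrd1, Klrc1, Klrc2, Klre1 and Cd160. Without mixed cells 6 of 12 were lower, and above the day 30 minimum 7 of 12. Klrc1, Klrc2, Klre1 and Klrk1 were lower in each of these settings. Since Klrc1, Klrc2 and Klre1 were measured through day 2 alone, their return in settings that share cells adds no support. On day 2 the Klrc genes were not confined to NK-gated cells. Klrc1 was read at 119 CPM in Cd8-gated and 56.5 in NK-gated cells (31 of 70 and 4 of 13 cells, 61 and 5 UMIs), and Klrc2 at 132 and 67.8. Within Cd8-gated cells, Klrc1 stood at 119 CPM on day 2 (90.8 to 152) and 32.6 on day 30 (6.72 to 95.3), with a UMI in 31 of 70 and 2 of 10 cells. These intervals overlap, as they do for Klrc2 (103 to 168 and 11.8 to 111) and Klrk1 (146 to 222 and 37.5 to 171). Klrd1 stood at 197 and 152 CPM in Cd8-gated cells (160 to 239 and 83.2 to 255), and without mixed cells its ratio over all T and NK cells, 0.520, lost the call.

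Of 17 measured genes of lymphoid transcription factors (22 listed), 1 was higher and 3 were lower on day 30, with a median of -0.29. The 3 lower genes were under 20 CPM on day 30 and so were measured through day 2 alone. Without mixed cells Satb1, Eomes and Runx3 were lower and Id3 was higher. Eomes (chr9:118478212-118486132), a T-box factor of killer and memory cells, had 0 UMIs untreated, 72 UMIs in 33 cells on day 2 (77.9 CPM), 0 on day 7 and 2 UMIs in 1 cell on day 30 (6.10 CPM). The day 2 level was 12.8 times that on day 30 (3.41 to 107). Of the 33 cells, 23 had a UMI of Cd8b1 and 8 of Ncr1. Tbx21, the related factor T-bet, stood at 89.1, 50.8, 22.6 and 18.3 CPM, and Satb1, a chromatin organiser of T cells, at 178, 75.7, 0 and 15.2. Satb1 was lower on day 30 by a factor of 4.97 (2.03 to 15.8) and Tbx21 by 2.78 (1.19 to 7.95). Without mixed cells the ratio for Tbx21 lost its call. Tcf7, the factor TCF1 of naive and memory T cells, stood at 50.8 and 39.6 CPM at days 2 and 30, and Bcl11b, which keeps T cell identity, at 186 and 104, neither with a call. Zeb2, the higher gene, stood at 96.3 and 262 CPM, and at 352 and 332 in the other barcodes of those libraries. Without mixed cells its ratio was 1.77 and not called.

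Genes of T cell receptor signalling were all measured, 18 of 18, and 3 were lower on day 30 (Txk, Sh2d1a and Ptprcap), with a median of -0.37. Without mixed cells Txk alone was lower, of 17 measured, and above the day 30 minimum Ptprcap lost the call. Txk (chr5:72695978-72752777), a kinase of the Tec family, stood at 379 CPM untreated (17 UMIs in 6 cells), 164 on day 2 (152 UMIs in 64 cells), 22.6 on day 7 (1 UMI) and 12.2 on day 30 (4 UMIs in 4 cells). The day 2 level was 13.5 times that on day 30 (5.16 to 50.1). Under 20 CPM on day 30, Txk was measured through day 2 alone, so its direction is a description and its return in other settings adds no support. Txk was also lower among CD3-bearing cells, above the day 30 minimum and without mixed cells, with day 30 at 0.102, 0.0980 and 0.0790 of day 2. In Cd8-gated cells alone, Txk stood at 123 CPM on day 2 (94.2 to 157) and 21.7 on day 30 (2.63 to 78.5), with a UMI in 35 of 70 and 2 of 10 cells. On day 2 the highest level was in NK-gated cells, 588 CPM. Lck, the kinase that starts receptor signalling, stood at 233 and 156 CPM at days 2 and 30, and Zap70, which it activates, at 84.4 and 45.7, both without a call. In the T cell receptor complex list, all 10 genes with a row in the files were measured and 2, the CD8 genes, were lower, with a median of -0.42. Without mixed cells Thy1 and Cd8b1 were lower and Cd5 higher.

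**Figure D3:**
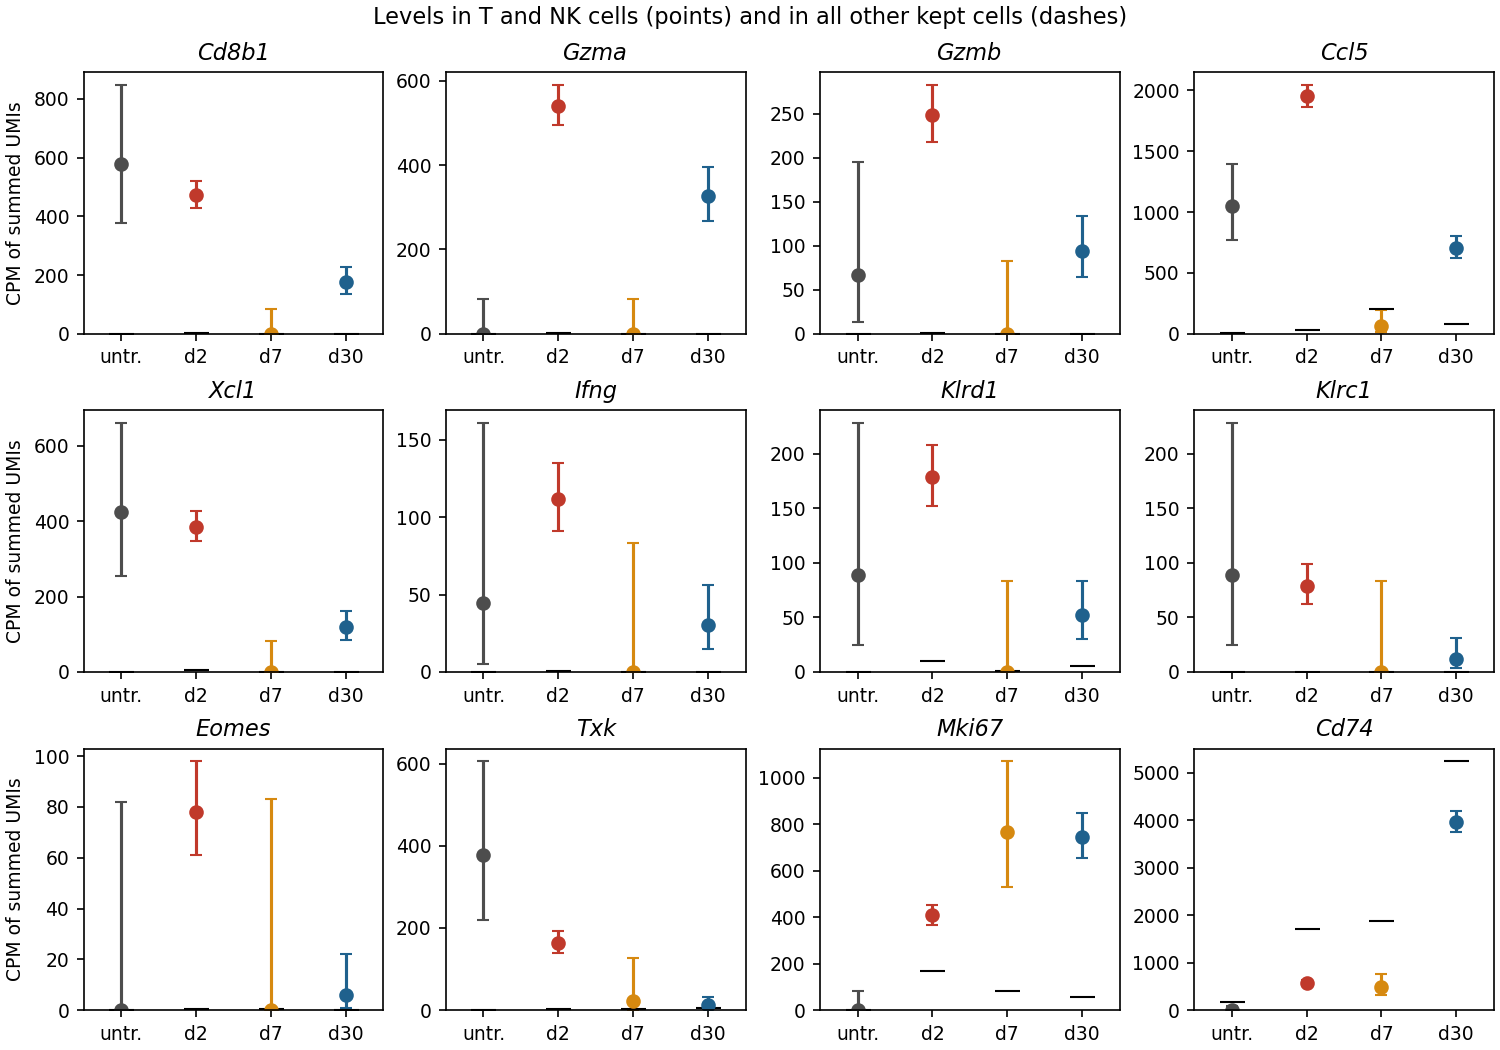
Level of 12 genes in T and NK cells of each library, as CPM with exact 95% Poisson intervals; black dashes give the level over all other kept barcodes of the same library. The receptor and killer genes Klrd1, Klrc1, Eomes and Txk are lower on day 30 than on day 2, and Klrc1, Eomes and Txk were measured through day 2 alone. Mki67 is read at both times. Cd74 is higher on day 30 in T and NK cells, where the other barcodes also have more of it.

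Of 13 listed cytotoxic genes, 11 were measured, 3 were lower on day 30 (Gzmb, Prf1 and Ctsw) and 0 higher, with a median of -0.55. Gzmb (chr14:56258838-56262260), granzyme B, stood at 66.8 CPM untreated (3 UMIs in 1 cell), 249 on day 2 (230 UMIs in 53 cells), 0 on day 7 and 94.5 on day 30 (31 UMIs in 3 cells). The ratio of day 2 to day 30 was 2.63 (1.80 to 3.96). Gzma (chr13:113093825-113100981), granzyme A, was read in 33 cells on day 2 (500 UMIs, 541 CPM) and in 3 on day 30 (107 UMIs, 326 CPM), of which 1 cell held 79 UMIs. With the top cell of each library left out, Gzma on day 30 was 0.179 of day 2 and lower by the rule. Gzmk, granzyme K, stood at 89.1, 82.2, 0 and 82.3 CPM, the same at days 2 and 30 within counting error. Ctsw, cathepsin W of killer cells, stood at 267, 210.0, 0 and 94.5 CPM. Prf1, perforin, rested on 20 UMIs on day 2 and 1 on day 30, and so was measured through day 2 alone.

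The granzymes depended on the subset counted. Of the 31 Gzmb UMIs on day 30, 31 were in Cd8-gated cells, and there Gzmb stood at 337 CPM (229 to 478) against 315 (269 to 368) in the Cd8-gated cells of day 2. With mixed cells left out, 0 of 10 measured cytotoxic genes were lower, and above the day 30 minimum 1 of 9 was lower. These 31 UMIs were in 3 of the 10 cells, against 38 of 70 cells with Gzmb on day 2. Over all T and NK cells Gzmb was 0.754 of its day 2 level without mixed cells, with no call.

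Of 5 chemokine genes, all were measured, 4 were lower on day 30 (Ccl3, Ccl4, Ccl5 and Xcl1) and 1 was higher (Ccl1), with a median of -1.02. Ccl5, a chemokine of memory and killer lymphocytes, stood at 1047 CPM untreated (47 UMIs in 5 cells), 1955 on day 2 (1807 UMIs in 88 cells), 67.7 on day 7 (3 UMIs in 1 cell) and 707 on day 30 (232 UMIs in 18 cells). It was lower on day 30 by a factor of 2.76 (2.41 to 3.18). Above the day 30 minimum its ratio was 0.676 and it lost the call. Within Cd8-gated cells it stood at 2695 CPM (2555 to 2840.5) and 2065 (1781.5 to 2380.0). Xcl1 (chr1:164931644-164935527), which attracts cross-presenting dendritic cells, stood at 423, 385, 0 and 119 CPM. Xcl1 was lower by a factor of 3.24 (2.32 to 4.63), and without mixed cells the ratio of 0.660 gave no call. Ccl3 and Ccl4, which attract myeloid cells and T cells, stood at 147 and 462 CPM on day 2 and at 73.2 and 223 on day 30. In the other barcodes Ccl3 stood at 231 and 64.0 CPM, so Ccl3 in T and NK cells was below the level of the other barcodes on day 2. Above the day 30 minimum Ccl3 and Ccl4 had no call.

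Ccl1, a ligand of the receptor CCR8, rested on few cells. It had 263 UMIs in 4 cells on day 2 and 210 UMIs in 1 cell on day 30, and 0 UMIs untreated and on day 7. The call of higher on day 30 (ratio 2.25) became 0 UMIs on day 30 once that cell was left out. The 4 day 2 cells held 113, 90, 59 and 1 Ccl1 UMIs. Each of these 4 cells also held UMIs of Ccl5 and Xcl1, 3 held Ifng and 0 held Cd8b1. The cell with 113 was Cd4-gated, that with 90 NK-gated, and that with 59 Cd8-gated by 1 UMI of Cd8a. The day 30 cell held Cd4, Ccl5 and Xcl1.

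Among 21 cytokine genes, 9 were measured, 2 were lower on day 30 (Ifng and Il17a) and 1 was higher (Csf1), with a median of -0.32. Il17a was under 20 CPM on day 30 and so was measured through day 2 alone. Ifng (chr10:118441046-118445892) stood at 44.5 CPM untreated (2 UMIs in 2 cells), 111 on day 2 (103 UMIs in 39 cells), 0 on day 7 and 30.5 on day 30 (10 UMIs in 5 cells). The ratio of day 2 to day 30 was 3.65 (1.91 to 7.85), and Ifng was lower in CD3-bearing cells, above the day 30 minimum and without mixed cells. Of the 39 cells on day 2, 36 also held Ccl5, 33 Ccl4 and 25 Cd8b1. Within Cd8-gated cells Ifng stood at 140.1 CPM (110 to 176) and 76.1 (30.6 to 157). Thinned to 2000 UMIs per cell, 23 of 121 cells on day 2 held an Ifng UMI (19.0%), against 1 of 1303 epithelial and 2 of 1841 myeloid barcodes (median totals of 11426 and 10653 UMIs before thinning), and on day 30 it was 2 of 34 (5.88%). Csf1, the macrophage growth factor, was read at 23.8 and 70.1 CPM, and at 68.9 and 55.2 in the other barcodes. Ltb, lymphotoxin beta, was read in each library, at 601, 405, 677 and 323 CPM. Tnf stood at 55.2 and 36.6 CPM at days 2 and 30, with no call, and Il10, Il22 and Il13 had 0 UMIs in both.

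Il17a, the cytokine of type 17 lymphocytes, was carried by 4 cells on day 2 (59 UMIs, 63.8 CPM) and 2 on day 30 (5 UMIs, 15.2 CPM). The 4 cells on day 2 bore CD3 and held 0 UMIs of Cd8b1, Gzma and Ccl5. Ccr6, a chemokine receptor of type 17 cells, was found in 3 of the 4, and Cd163l1, a scavenger receptor known from gamma-delta T cells, in 2. Of the 4, 1 held Cd4. The other day 2 barcodes had 3 Il17a UMIs in all, 0.0307 CPM, the highest ratio of any named gene between T and NK cells and the other day 2 barcodes. Next by that ratio were Cd40lg, the ligand by which CD4 cells help B cells (27.0 against 0.0512 CPM), Cd163l1, Wdr95 and Gzmk. They were followed by Zap70, Actn2, Cd96, Podnl1, Cd8b1, Pdcd1 and Eomes. The rule selected the cells, so such ratios describe them and are no test.

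On day 2 levels of killer genes differed between the gates. Gzma was read at 467 CPM in Cd8-gated, 2544 in NK-gated and 193 in CD3-bearing cells with neither coreceptor, and at 0 in the 12 Cd4-gated cells. Gzmk stood at 126 CPM in Cd8-gated cells and 0 in NK-gated ones. Ccl5 stood at 2695 and 2679.7 CPM in Cd8-gated and NK-gated cells and at 154 in Cd4-gated ones. Xcl1 was highest in NK-gated cells, 1696 CPM in 10 of 13 cells, against 187 in Cd8-gated cells, 192 in Cd4-gated cells (1 cell) and 538 in cells with neither coreceptor (3 cells). Those last cells also held Ccl5, at 731 CPM. Runx3 stood at 267 CPM in Cd8-gated and 12.8 in Cd4-gated cells, from 137 and 1 UMIs. Perforin stood at 113 CPM in NK-gated and 17.5 in Cd8-gated cells.

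Cd4-gated cells on day 2 carried other genes. Il7r, the interleukin 7 receptor of resting and memory T cells, stood at 384 CPM in them, 77.8 in Cd8-gated and 0 in NK-gated cells. Cd40lg stood at 115 CPM in Cd4-gated and 1.95 in Cd8-gated cells. Ltb stood at 934, 282 and 124 CPM in Cd4-gated, Cd8-gated and NK-gated cells. Ctla4, an inhibitory receptor, stood at 281 CPM in Cd4-gated cells, from 22 UMIs in 3 cells. The 21 cells with neither coreceptor held genes of several kinds: Cd163l1 stood at 130.4 CPM there and Il17a at 255 (3 cells), and Bcl11b, which had 0 UMIs in the 13 NK-gated cells, stood at 187. Spp1, osteopontin, which injured tubules express, stood at 17765 CPM in those 21 cells, 4421 in NK-gated, 3479.6 in Cd4-gated and 1967 in Cd8-gated cells. The part of tubule RNA in these profiles was not tested.

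**Figure D4:**
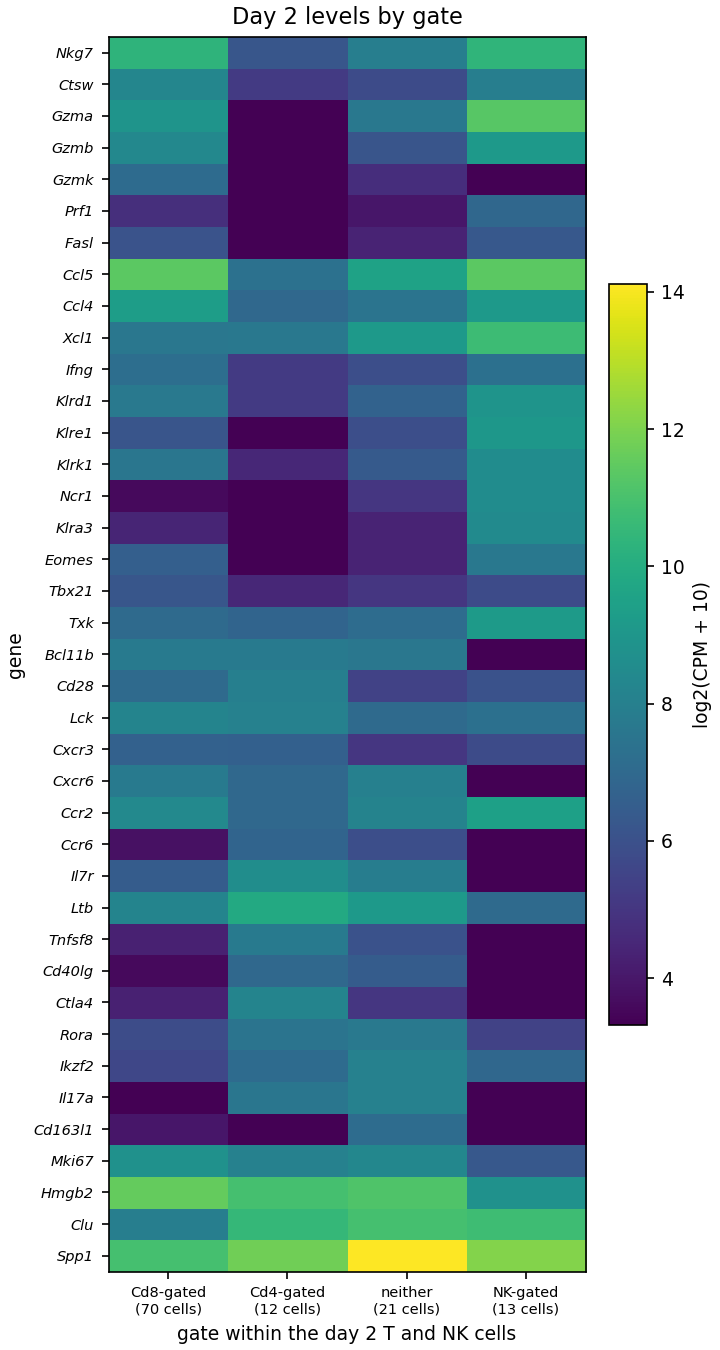
Levels of selected genes on day 2 in 4 gates of T and NK cells (70 Cd8-gated, 12 Cd4-gated, 21 with neither coreceptor, 13 NK-gated), as log2 of CPM + 10. Lighter colours are higher: Gzma and Ccl5 are higher in the NK-gated and Cd8-gated columns than in the Cd4-gated one, and Il7r, Ltb, Cd40lg and Ctla4 are highest in the Cd4-gated column.

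Regulatory T cell genes were few. Foxp3, the factor that defines these cells, had 0 UMIs untreated, 2 UMIs in 2 cells on day 2, 4 UMIs in 1 of the 2 cells on day 7 and 9 UMIs in 4 cells on day 30. All 4 Foxp3 cells on day 30 held Ikzf2 and Ctla4, 2 held Tnfrsf4 and 2 held Cd4. Ctla4 stood at 46.5 CPM on day 2 and 45.7 on day 30. Tnfrsf4, the costimulatory receptor OX40, stood at 22.7 and 51.8 CPM, a ratio of 2.28 (1.13 to 4.54). That call was lost when the top cell of each library was left out, and also above the day 30 minimum. Of 13 checkpoint and costimulatory genes, 9 were measured, 2 were higher on day 30 (Tnfrsf4 and Nt5e) and 0 lower, with a median of 0.15. Over all measured genes 13.0% were higher and 3.82% lower, with a median of 0.17. Pdcd1, the receptor PD-1, stood at 29.2 and 42.7 CPM, from 27 and 14 UMIs, with no call. Nt5e, an enzyme that makes adenosine, stood at 8.65 and 54.9 CPM, against 12.8 and 71.4 in the other barcodes. Under 20 CPM on day 2, Nt5e was measured through day 30 alone.

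Receptors for homing and residence showed few calls. Of 17 chemokine receptor genes, 11 were measured, 1 was higher on day 30 (Ccr7) and 1 lower (Gpr183). Ccr7, which guides cells to lymph nodes, rested on 3 UMIs in 1 cell on day 2 and 21 UMIs in 3 cells on day 30, all 3 with neither coreceptor, and without mixed cells it had 0 UMIs on day 30. Under 20 CPM on day 2, Ccr7 was measured through day 30 alone. Cxcr6, a receptor of tissue T cells, stood at 512, 176, 339 and 125 CPM, and Cxcr3, which reads interferon-induced chemokines, at 200.4, 72.5, 0 and 61.0, with no call between days 2 and 30. Without mixed cells Cxcr6 was lower on day 30 (0.392 of day 2). Among adhesion and residence genes, Itga1 was higher and Cd69 lower on day 30. Itga1, the integrin CD49a of resident cells, stood at 111, 26.0, 0 and 82.3 CPM, higher on day 30 than on day 2 by a factor of 3.17 (1.76 to 5.74), and was read at 22.7 and 76.3 CPM in the other barcodes. Cd69, which holds cells in tissue, stood at 334, 369, 0 and 168 CPM, and above the day 30 minimum its ratio of 0.516 gave no call. Itgb1, an integrin beta chain, stood at 629.5 CPM on day 2 and 1067 on day 30, short of 2-fold, and was higher by a factor of 2.31 without mixed cells. Within Cd8-gated cells it stood at 704 (634 to 781) and 1608 (1360 to 1889).

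Of cytokine receptors, 10 of 18 were measured and 2 were lower on day 30, both of them chains that read interleukins 2 and 15. Il2rb stood at 66.8, 85.5, 67.7 and 30.5 CPM, and Il2rg at 267, 237, 135 and 107. Il2rb was lower on day 30 by a factor of 2.80 (1.45 to 6.07) and Il2rg by 2.22 (1.55 to 3.27), and without mixed cells neither had a call. Il7r stood at 120.1 CPM on day 2 and 171 on day 30, with no call. Its direction turned with the cells counted: without mixed cells it was lower on day 30 (0.407 of day 2), and above the day 30 minimum it was higher (2.34-fold). Among 12 genes of survival and apoptosis, Bcl2, which protects lymphocytes, was lower (184 and 82.3 CPM), as was Bcl2l11, its antagonist BIM (36.8 and 12.2 CPM, 34 and 4 UMIs). Neither had a call above the day 30 minimum. Under 20 CPM on day 30, Bcl2l11 was measured through day 2 alone.

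Genes of cell division were read in many of the cells on days 2 and 30. The 11 untreated cells were shallower. Cells with at least 2 UMIs of Mki67 and Top2a together, a gate chosen after the levels were seen, were 0 of 11 untreated, 58 of 121 on day 2 (47.9%, 38.8 to 57.2%), 1 of 2 on day 7 and 13 of 34 on day 30 (38.2%, 22.2 to 56.4%). Above the day 30 minimum, 44 of 62 day 2 cells passed (71.0%, 58.1 to 81.8%), more than on day 30. The day 30 share was 57.1% of the 14 cells left without mixed cells, and 63.2% of 19 with a rule signal of at least 10 per 10000 and 5 UMIs, so the order of the days depended on the cells counted. Mki67, the proliferation antigen Ki-67, stood at 0, 409, 767 and 747 CPM, from 378 UMIs in 57 cells on day 2 and 245 UMIs in 16 cells on day 30. Top2a, the topoisomerase of chromosome segregation, stood at 44.5, 532, 451 and 467 CPM. The other barcodes held less Mki67: 2.48, 169, 83.4 and 58.1 CPM. Thinned to 2000 UMIs per cell, 32 of 121 cells on day 2 (26.4%) and 8 of 34 on day 30 (23.5%) held an Mki67 UMI, against 13.9 and 6.54% of myeloid barcodes and 2.69 and 1.73% of epithelial ones. Of 19 cell cycle genes, all measured between days 2 and 30, 2 were lower and 0 higher. These were Rrm2 (108 and 27.4 CPM) and Pcna (116 and 42.7 CPM), both of DNA synthesis. Without mixed cells 2 were higher (Mki67, 2.14-fold, and Cenpf, 2.26-fold) and 2 lower, with a median of 0.03 in place of -0.29. With day 2 held to the day 30 minimum, 5 were lower and 0 higher.

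Set beside all other barcodes of the same library, 598 of 6863 measured genes were higher in T and NK cells on day 2 (8.71%) and 1432 lower (20.9%). On day 30, 729 of 7684 were higher (9.49%) and 703 lower (9.15%). Cell cycle genes were higher for 13 of 19 on day 2 and 17 of 19 on day 30, with 0 lower at either time and medians of 1.22 and 2.24 (log2). For immediate early genes, which respond to stress and to dissociation, 0 of 20 were higher and 10 lower on day 2, and 0 higher and 6 lower on day 30, with medians of -0.86 and -0.59. The lower genes at both times were Fos, Jun, Egr1, Atf3, Zfp36 and Hspa1b. Of 15 interferon response genes measured on day 2, 3 were higher in T and NK cells and 3 lower, with a median of -0.06. On day 30 it was 4 higher and 2 lower of 12, with a median of 0.54. The higher ones on day 2 were Psmb8 and Psmb9, of the immunoproteasome, and H2-K1, an MHC class I gene. Between days 2 and 30, 0 of 11 measured interferon response genes were called in either direction, and 0 of 9 glycolysis genes. The interferon response gene Bst2 was lower above the day 30 minimum.

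By a rule of size (at least 50 UMIs, at least 2-fold above the other barcodes, ordered by ratio), 9 genes were named as higher on day 30. Il12b, the shared chain of interleukins 12 and 23, headed them with 54 UMIs, all in 1 cell, and 0 on day 2. Tnc, the matrix protein tenascin C, had 3 UMIs in 2 cells on day 2 and 54 UMIs in 13 cells on day 30, a ratio of 50.7 (16.5 to 254), and the other barcodes held 5.98 and 70.6 CPM. Il12b and Tnc were under 20 CPM on day 2 and so were measured through day 30 alone. The others were Ccl1, described above, and Fchsd2, Lrch3, Atp2b4, Smg6, Ash2l and Cenpe, with ratios of 2.08 to 3.43. Of these, Fchsd2 and Cenpe lost the call when the top cell was left out. The 12 genes named as lower were Klre1, Txk, Eomes, Klrc2, Klrc1, Satb1 and 6 others. Those 6 named first, with Cdca7 and Klrb1f, were under 20 CPM on day 30 and were measured through day 2 alone. Ly6c2, a surface protein of effector and memory CD8 cells and of monocytes, stood at 601, 582, 0 and 67.1 CPM, lower on day 30 by a factor of 8.68 (5.67 to 14.0). Ctla2a, a protease inhibitor of activated T cells, stood at 156, 464, 22.6 and 82.3 CPM. Ugcg, glucosylceramide synthase, had 130 UMIs on day 2 and 8 on day 30. The remaining ones were Hist1h2ab, Cdca7 and Klrb1f. Ly6c2, Ctla2a and Hist1h2ab have near-identical copies that counting can mix.

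Genes of other cell types also differed between the libraries. All 5 measured dendritic cell markers of 8 (Cd209a, H2-Ab1, H2-Aa, H2-Eb1 and Cd74) were higher on day 30. Their 8 genes summed to 22.3 CPM in T and NK cells untreated, 1610 on day 2, 1083 on day 7 and 9669 on day 30, or 5.73, 33.9, 28.2 and 78.0% of the level in the other barcodes, and 7, 2, 3 and 0 of them had no UMI. Per cell the sum ran from 0 to 304 per 10000 on day 2 (median 2.17) and from 5.30 to 451 on day 30 (median 20.5). Xcr1, a receptor of cross-presenting dendritic cells, had 17 UMIs in 4 cells on day 30. Cd209a was no longer measured without mixed cells or without the top cell of each library, while the 4 class II genes stayed higher in both settings. Cd74, the invariant chain, stood at 0, 582, 497 and 3961 CPM in T and NK cells and 174.5, 1709, 1866 and 5241 in the other barcodes. Without mixed cells it remained higher on day 30 by a factor of 5.21. The 23 day 30 cells under 50 per 10000 ranged from 5.30 to 43.4 per 10000 for the 4 class II genes (median 12.5), and the 116 day 2 cells from 0 to 16.4 (median 2.12).

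**Figure D5:**
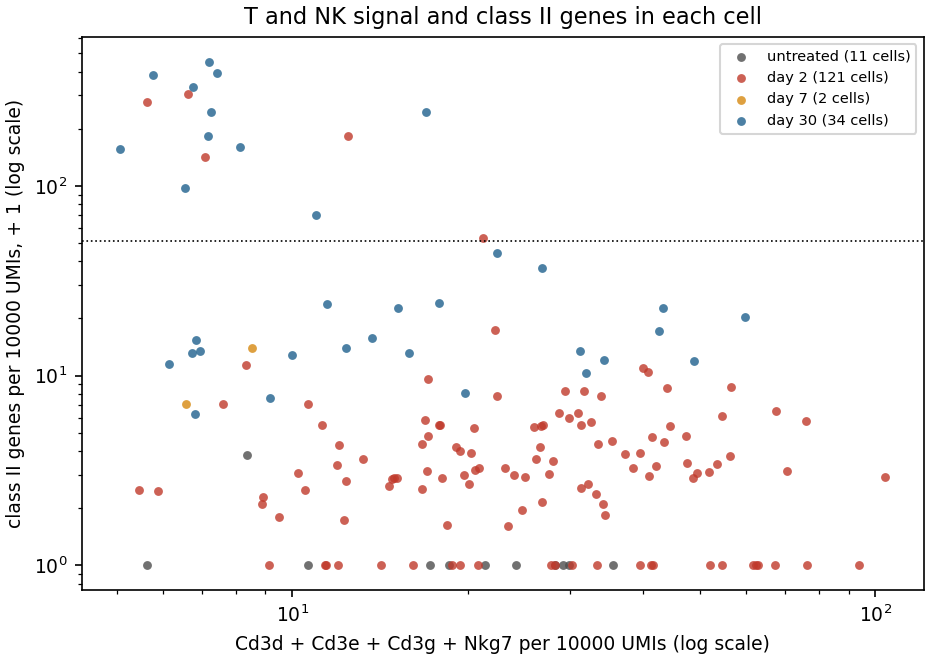
Each point is a T or NK cell, with the rule's signal (Cd3d, Cd3e, Cd3g and Nkg7 per 10000 UMIs) on x and the 4 class II genes per 10000 UMIs, plus 1, on y, both log axes; the dotted line is at 50 per 10000. Of the 11 day 30 cells above it, 9 have a signal under 10.

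The 10 macrophage markers summed to 0, 592, 451 and 1116 CPM, and the 8 neutrophil markers to 22.3, 319, 45.1 and 116. Between days 2 and 30, 3 of 8 measured macrophage markers were higher and 4 of 5 measured neutrophil markers lower. Without mixed cells 1 macrophage marker was higher (Apoe) and 1 lower (Cd14) of 6, and 0 of 5 neutrophil markers were lower. B and plasma cell markers summed to 14.1 CPM on day 2 and 9.15 on day 30. The part of RNA from other cells in the calls above was not tested. Subtracting 20% of the level in the other barcodes left 772 genes higher and 245 lower.

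Clu itself, whose reporter the sort used, was lower in these cells than in the other barcodes of each library. It stood at 22.3 CPM untreated (1 UMI), 796 on day 2 (736 UMIs in 80 cells, 215 of them in 1 cell), 158 on day 7 (7 UMIs) and 277 on day 30 (91 UMIs in 19 cells), against 234, 2503, 1370 and 667 CPM. Thinned to 2000 UMIs per cell, 0 of 11, 38 of 121 (31.4%), 1 of 2 and 11 of 34 (32.4%) held a Clu UMI. In myeloid barcodes this share was 6.25, 24.3, 30.3 and 19.6%, and in epithelial ones 18.6, 84.3, 60.4 and 58.0%. By gate on day 2, Clu stood at 237 CPM in Cd8-gated cells and at 1471 to 1922 in the other 3 gates. The highest, 1922 CPM, came from 339 UMIs in 14 of the 21 cells with neither coreceptor, among them the cell with 215. NK-gated cells held 155 UMIs, in 7 of 13 cells. Clu transcribed in these cells and Clu from free RNA cannot be told apart here.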

How the data were processed

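T and NK cells were taken from 4 single-cell libraries, 1 per group. The deposited matrices hold raw UMI counts per gene (27998 genes) and barcode, whole numbers that the authors had not normalized. The submitters' processing notes name Cell Ranger 7.0.1 with build mm10, and per the file headers the matrix software version is 3.0.1. For the annotation and the calling of barcodes, no rule is given in the labels. Library totals were 68193456 UMIs untreated, 98818914 on day 2, 49397016 on day 7 and 76638427 on day 30, of which T and NK cells held 44907, 924478, 44302 and 327954.

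Counts were summed over the cells of each library and scaled to CPM. Log ratios used CPM + 10, and zeros a floor of 3 UMIs. Named genes were up to 12 each way, by ratio among called genes with at least 50 UMIs and a level at least 2-fold that of the other barcodes, beside the listed genes. Nothing was tested because cells are not replicates. The 32 gene lists and the members were chosen with earlier results of these data known. Chosen after levels were seen were the minimum of 30 cells, the cycling gate, the 15-marker check, the mixed class, leaving out top cells, the co-detected pairs, the Cd8-gated values at both times and the promoters shown. Doublets were not removed; Scrublet (scanpy 1.11.5, expected rate 0.8% per 1000 barcodes up to 10%) was an alternative. It called 2 of 6546 untreated barcodes, so it did not work there. On simulated counts the size rule recovered 100 of 100 genes raised 4-fold and 86 of 100 lowered 4-fold, and called 136 of 6221 unchanged ones. These figures hold for the simulated counts only. They give no rate of false calls between the real libraries, where 1 cell can carry a call. Python 3.11.15, numpy 2.4.6, scipy 1.17.1, pandas 2.3.3 and matplotlib 3.10.9 were used. Promoter windows and positions came from RefSeq and GENCODE on the same build.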

Additional observations from a re-analysis of the deposited data

Results flagged for a closer look

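Barcodes that carried the rule's T and NK signal but were left out by its macrophage or neutrophil limits are data that the comparisons do not use. There were 44 on day 2 and 6 on day 30, against 0 untreated and 0 on day 7. The 44 had a median of 7101.5 UMIs and 9 CD3 UMIs, and Scrublet called 9 of them. The 6 had a median of 11033.5 UMIs and 4 CD3 UMIs, and Scrublet called 2. On day 2 the neutrophil limit left out 34 and the macrophage limit 11. Their levels were not compared.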

How the results depend on the processing

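Of 94 recomputed values of the shares and gene counts, 76 stayed within their interval or within 1.5 times, and 18 moved. Of 284 values for lists and named genes, 259 kept direction and call, 19 lost the call, 5 moved and 1 reversed. Above the highest library minimum (18362 UMIs) the shares were 0% untreated, 0.504% on day 2 and 0.164% on day 30. With a stricter signal (10 per 10000 and 5 UMIs) they were 0% on day 7 and 0.274% on day 30, and without mixed cells 0.202% on day 30. Above the day 30 minimum, 53.6% of day 2 CD3-bearing cells were Cd8-gated and 71.0% of day 2 cells cycled. With CD3 genes alone as the rule, 0% of day 2 cells were NK-gated, which follows from the rule. Cycling cells on day 30 were 63.2% with the stricter signal (19 cells left) and 57.1% without mixed cells (14 left). Genes higher on day 30 numbered 466 with the stricter signal, 421 without mixed cells, 1547 with no filter on low values, 367 at 3-fold and 558 without top cells. Genes lower numbered 152 with the stricter signal and 125 at 3-fold. Ccl1 reversed, to a ratio of 0, without its top cell. The cytotoxic list had 0 genes lower with the stricter signal and without mixed cells, and 1 above the day 30 minimum and at 3-fold. The cause was not tested where it is not named. No paired analysis was possible because each group had 1 library.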
